A study of Rattus norvegicus with 399 samples.

Results

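The proteasome and ubiquitin pathway genes described here were 26 genes, measured by 27 probe rows of a panel with 2654 probe rows and 2603 gene symbols. They were chosen by name only: symbols that begin with Psma, Psmb (Psmb9 left out), Psmc, Psmd or Psme, with Ube2, or with Usp or Cul and a digit. By role they were 1 alpha and 3 beta subunits of the 20S core, 1 ATPase and 5 non-ATPase genes of the 19S cap, 3 activator genes (Psme3 with 2 probes), 7 Ube2 genes and 6 Usp genes. The 5 non-ATPase genes are grouped by the name Psmd, although Psmd9 and Psmd10 encode assembly chaperones and not subunits of the finished cap. No probe row began with Cul and a digit. The Usp6nl gene is matched by the name rule, although its product is a Rab GTPase-activating protein and not a ubiquitin protease. The Ube2g2 probe was at 0 in all 390 libraries used, so 26 probe rows had counts.

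Ubiquitin is passed from an E1 enzyme to an E2 (the Ube2 genes) and then, with an E3 ligase, to a target protein, and chains of it mark the target for the 26S proteasome. That particle has a barrel, the 20S core, whose beta subunits cut proteins, and a 19S cap that binds the chains, unfolds the target and feeds it in. In cells exposed to interferon gamma, Psmb8, Psmb9 and Psmb10 replace the standard catalytic beta subunits to make the immunoproteasome, and Psme1 and Psme2 form an activator ring on the core. Deubiquitinases (the USP family) remove ubiquitin; Usp14 does so on the proteasome itself. In liver, proteasome genes are known targets of stress-responsive transcription factors.

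TempO-Seq, an assay that counts reads from pairs of detector oligonucleotides ligated on chosen transcripts, was run on liver, ovary, heart, lung and kidney of female Sprague-Dawley rats aged 9 weeks, sampled on study day 5. The rats had received 1,2-dichlorobenzene (1,2-DCB) at 0, 1, 10, 30, 100, 250 or 500 ppm, or 1,4-dichlorobenzene (1,4-DCB) at 0, 1, 10, 50, 150, 400 or 800 ppm. The isomers differ in where the chlorine atoms sit on the benzene ring, side by side in the first and opposite each other in the second. Each compound had its own controls, 10 rats, and 5 rats per exposed group. After libraries marked by the submitters as unused were left out, smaller groups were 1,2-DCB kidney 0 ppm (9 rats), 1,4-DCB lung 0 ppm (8), 1,2-DCB lung 500 ppm and 1,4-DCB lung 1, 10 and 150 ppm (4 each), and 1,4-DCB lung 400 ppm (3). The 1,4-DCB kidney group at 1 ppm also had 4 rats, since the series holds no kidney library of rat F105. The labels do not give the route of exposure.

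Library totals ran from 1202354 to 69774071 counts (median 22555404). Every library correlated at 0.943 or more with the median of its tissue and compound, and the 5 livers at 1,2-DCB 500 ppm were the lowest, at 0.943 to 0.966. In the controls, the summed level of the hepatocyte markers averaged 501436 and 552031 CPM (counts scaled to each library's size with TMM factors) in the liver of the 1,4-DCB and 1,2-DCB rats and at most 6445 CPM in any other tissue. The sum of the cardiomyocyte markers averaged at least 338951 CPM in heart and at most 12.7 elsewhere, and that of the ovary somatic markers at least 12798 CPM in ovary and at most 54.4 elsewhere. No listed lung epithelium marker had a tested probe, so the lung label was not checked this way, and 3 kidney tubule markers were tested in kidney alone, with means of 203.7 and 212.8 CPM. In whole tissue, fewer cells of a type and less RNA per cell cannot be told apart.

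RefSeq promoter windows of the rat build GRCr8, 250 bases before to 50 after each gene's start, matched 22 of the 26 genes. The windows of 4 genes are shown because the liver results turn on them: Usp14 and Psmd4 rose with both compounds, and Psmb8 and Psmb10 fell with 1,2-DCB. They lie at chr18:1330287-1330586, minus strand (Usp14), chr2:185297152-185297451, minus strand (Psmd4), chr20:4656982-4657281, minus strand (Psmb8) and chr19:50743243-50743542, minus strand (Psmb10). Each is written 5′ to 3′ on the strand of the gene, and capitals mark a match to one of 3 motifs described after them.
Usp14: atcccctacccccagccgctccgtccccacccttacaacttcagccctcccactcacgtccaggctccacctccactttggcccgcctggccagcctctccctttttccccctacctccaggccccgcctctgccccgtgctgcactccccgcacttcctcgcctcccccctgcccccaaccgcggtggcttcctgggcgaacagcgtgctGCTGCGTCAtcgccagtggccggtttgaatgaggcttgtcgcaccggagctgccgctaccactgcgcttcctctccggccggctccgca
Psmd4: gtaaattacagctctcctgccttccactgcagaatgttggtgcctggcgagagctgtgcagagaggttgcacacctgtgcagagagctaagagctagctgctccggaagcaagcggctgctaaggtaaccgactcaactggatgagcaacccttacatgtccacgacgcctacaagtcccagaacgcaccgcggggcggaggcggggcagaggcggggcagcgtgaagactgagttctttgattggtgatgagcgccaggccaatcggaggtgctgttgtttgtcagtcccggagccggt
Psmb8: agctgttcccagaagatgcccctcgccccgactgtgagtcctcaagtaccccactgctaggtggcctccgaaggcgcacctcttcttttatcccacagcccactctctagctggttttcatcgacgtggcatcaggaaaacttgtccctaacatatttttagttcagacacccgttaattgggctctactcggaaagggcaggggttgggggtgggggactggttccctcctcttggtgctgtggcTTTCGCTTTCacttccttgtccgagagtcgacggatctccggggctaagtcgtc
Psmb10: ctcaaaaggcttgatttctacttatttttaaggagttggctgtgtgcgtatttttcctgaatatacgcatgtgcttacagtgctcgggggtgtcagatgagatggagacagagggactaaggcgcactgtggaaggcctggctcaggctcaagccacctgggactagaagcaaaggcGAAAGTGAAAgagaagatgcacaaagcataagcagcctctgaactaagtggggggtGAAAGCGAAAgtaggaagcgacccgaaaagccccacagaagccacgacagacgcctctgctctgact

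The motifs were searched on both strands of each 300-base window: TGACNNNGC, the core of the antioxidant response element bound by NRF2, GAANNTTC, a heat shock element core, and the core of the interferon-stimulated response element (the letters GAAA, NN, GAAA in 1 run), which was added after the expression values had been seen. No matches of different motifs overlapped in the windows shown. The antioxidant core was in 4 of 22 member windows (18.2%) and in 12.1% of 33365 distinct windows of the same length. Its matches were in Usp14, where it begins 39 bases before the start, and in Psmd9, Ube2g2 and Ube2j1. The heat shock core was in 0 of 22 member windows and 8.54% of all windows. The interferon core was in 4 of 22 (18.2%) against 3.92% of all, namely in Psmb8 (first base 4 before the start), Psmb10 (73 and 17 before), Psme2 (53 before) and Psmb3. A match says only that these letters occur in the window.

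In liver at 500 ppm 1,2-DCB, genes of the 19S cap, the standard 20S core and the deubiquitinase Usp14 were higher than in controls, while the immunoproteasome subunits Psmb8 and Psmb10 were lower. Counts were compared with edgeR's quasi-likelihood test, and a probe was called where the Benjamini-Hochberg adjusted p over all probes tested in that comparison was below 0.05. Of 25 member probes tested, 15 rose and 2 fell. The 15 include Ube2t, which passed the filter on low counts only through exposed livers. Of all 2019 probes 67.8% were called, so the share of members called, 17 of 25, was near that of the panel. By direction, 35% of all probes rose and 32.7% fell. The median log2 fold change was 0.46 over the members and 0.03 over all probes. In 11 of the 25 every exposed rat lay beyond every control, as in 36.4% of all probes.

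**Figure D1:**
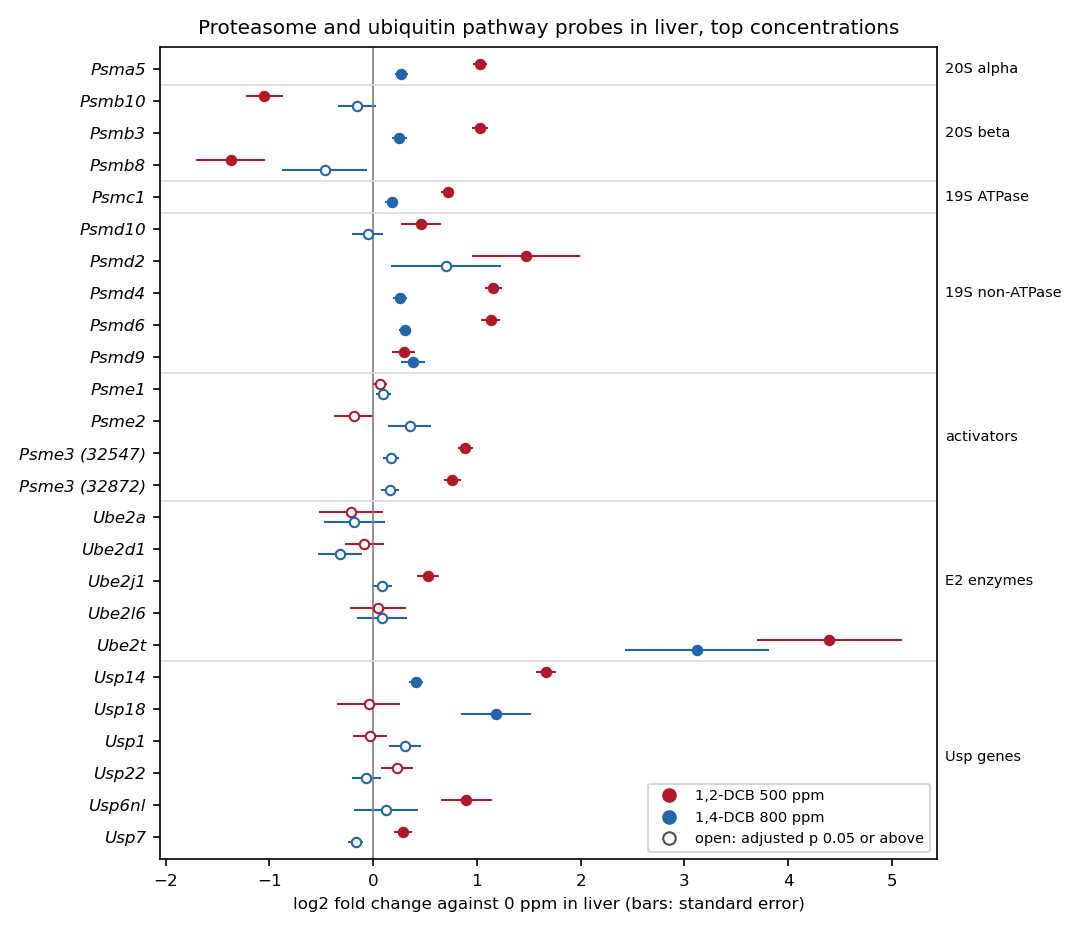
Log2 fold changes in liver of the 25 member probes tested, by role, at 500 ppm 1,2-DCB (red) and 800 ppm 1,4-DCB (blue) against each compound's 0 ppm controls, with standard errors as bars. Filled points passed an adjusted p of 0.05; the 1,2-DCB points of Psma5, Psmb3, Psmd4 and Psmd6 lie just above 1, and those of Psmb8 and Psmb10 below -1.

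Among the 20S core genes, Psma5, the only alpha subunit on the panel, was at 44.5 to 56.8 CPM in the 10 control livers (median 51.8) and at 90.4, 111.4, 88.9, 113.8 and 115.7 CPM in rats F601 to F605 at 500 ppm 1,2-DCB. All 5 exposed rats lay above all controls, and the log2 fold change was 1.03 ± 0.07 (SE, adjusted p = 8.8e-17, edgeR). Psmb3, a non-catalytic beta subunit, went from 33.6 to 51.2 CPM (median 39.05) in controls to 75.7, 85.3, 76.2, 89.3 and 78.8 CPM, a log2 fold change of 1.03 ± 0.07 (adjusted p = 3.0e-15, edgeR). Here too the groups did not overlap.

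The immunoproteasome members went the other way. Psmb10, a catalytic beta subunit of the immunoproteasome, was at 2.07 to 3.78 CPM (median 2.85) in controls and at 0.855, 1.48, 1.50, 1.67 and 1.29 CPM in the exposed rats. Every exposed rat was below every control, and the log2 fold change was -1.05 ± 0.18 (adjusted p = 2.4e-06, edgeR). Psmb8, the other such subunit among the members, was at 10.3 to 35.7 CPM (median 25.2) in controls and at 12.1, 8.70, 10.7, 16.2 and 2.69 CPM at 500 ppm, a log2 fold change of -1.37 ± 0.34 (adjusted p = 0.00053, edgeR). Its groups overlapped: 2 of 5 exposed rats were below all controls. Without rat F605, the lowest, its log2 fold change was -1.12 (adjusted p = 0.0030, edgeR).

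Most tested markers of macrophages, lymphocytes, neutrophils and red cells were lower in the same livers, where 32.7% of all probes fell. Tested too were 10 hepatocyte and 4 endothelium markers, whose changes are not given here. All 4 tested macrophage markers of 9 listed fell, and their summed level was 46.7 to 70.97 CPM in controls and 24.01 to 33.9 at 500 ppm. Of 3 tested lymphocyte markers 2 fell, with sums of 2.93 to 4.53 CPM in controls and 1.48 to 2.10 at 500 ppm. Of 3 tested neutrophil markers 2 fell (sums of 3.92 to 11.1 CPM against 2.12 to 3.81), and both tested red cell markers fell (70.2 to 194.8 CPM against 34.1 to 93.2). None of these sums was at 0, and their part in the fall of Psmb8 and Psmb10 was not tested.

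For the 19S cap, Psmc1, an ATPase of its base ring, was at 58.6 to 75.6 CPM (median 63.02) in controls and at 100.8, 115.98, 95.5, 104.6 and 113.9 CPM at 500 ppm 1,2-DCB, a log2 fold change of 0.72 ± 0.06 (adjusted p = 1.7e-12, edgeR). The 5 non-ATPase probes all rose. Psmd4, a ubiquitin receptor of the cap, was at 47.999 to 62.02 CPM (median 54.3) in controls and at 99.99, 136.2, 105.99, 143.4 and 116.8 CPM in the exposed rats, with a log2 fold change of 1.16 ± 0.08 (adjusted p = 5.1e-16, edgeR). Psmd6, a lid subunit, went from 45.5 to 86.3 CPM (median 68.4) to 133.6, 156.03, 135.6, 168.99 and 149.6 CPM, a log2 fold change of 1.14 ± 0.09 (adjusted p = 9.7e-14, edgeR). In all 3 the exposed and control rats did not overlap.

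The other 3 non-ATPase probes were at lower levels. Psmd9, an assembly chaperone of the base, was at 4.04 to 5.50 CPM in controls and 5.27 to 6.47 CPM at 500 ppm (log2 fold change 0.29 ± 0.11). Psmd2, a large scaffold subunit, had 1 to 13 counts per control library and 11 to 29 per exposed library, and its log2 fold change of 1.47 ± 0.52 rests on those few counts. Psmd10, known as gankyrin, was at 0.438 to 2.36 CPM in controls and 2.09 to 2.35 CPM at 500 ppm, so no exposed rat was above all controls. Its log2 fold change of 0.46 ± 0.19 had an adjusted p of 0.030 (edgeR), which was 0.051 without control rat F7 and 0.073 when only the 500 ppm and control livers were fitted. Psmd10 was the fifth called non-ATPase gene and is named outside the rule of 4 per role, after its values were seen.

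Of the activators, both Psme3 probes rose. Psme3 encodes the nuclear activator PA28 gamma. Its probe 32547 was at 10.2 to 12.7 CPM (median 11.6) in controls and at 20.3, 22.5, 18.5, 21.4 and 23.1 CPM at 500 ppm 1,2-DCB, a log2 fold change of 0.89 ± 0.07 (adjusted p = 7.4e-14, edgeR). The second probe, 32872, gave 0.76 ± 0.08, from a control median of 13.4 to 18.4, 21.7, 23.5, 26.7 and 26.03 CPM. These probes read 1 gene and are not independent members. Psme1 and Psme2, the interferon-linked activators, had log2 fold changes of 0.06 ± 0.07 and -0.19 ± 0.19 and were not called.

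Among the Usp genes, Usp14 had the largest log2 fold change of any member with a median of at least 1 CPM in the control livers. The 10 control livers were at 16.97 to 21.8 CPM (median 19.5), and the 5 rats at 500 ppm 1,2-DCB were at 40.4, 67.3, 55.9, 75.1 and 66.8 CPM. The log2 fold change was 1.67 ± 0.09 (adjusted p = 2.7e-18, edgeR), and the groups did not overlap. Usp7, which acts on the p53 ligase MDM2 among other targets, was at 11.6 to 14.5 CPM in controls and at 11.4, 15.9, 12.99, 16.4 and 19.7 CPM (log2 fold change 0.29 ± 0.09, adjusted p = 0.0031, edgeR). Of those rats, 3 were above all controls and F601 was below all of them. Usp6nl, the gene matched by name only, was at 0.298 to 0.725 CPM in controls and 0.740 to 1.13 CPM at 500 ppm (log2 fold change 0.90 ± 0.24).

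The E2 genes split. Ube2j1, an E2 of the endoplasmic reticulum that serves the degradation of misfolded proteins, was at 7.69 to 12.5 CPM (median 10.2) in controls and at 11.1, 16.7, 12.7, 16.2 and 16.6 CPM (log2 fold change 0.53 ± 0.11, adjusted p = 3.8e-05, edgeR). Ube2t, the E2 of the Fanconi anaemia DNA repair pathway, had 6 counts in all over 10 control livers, with 5 of them at 0, and 84 counts over the 5 livers at 500 ppm 1,2-DCB, 2 to 34 per liver. It was called as higher, but the size of a fold change against so few counts depends on the prior count. With so few control counts, Ube2t passed the filter on low counts only through exposed livers where it was high. Its p is therefore not given as support, and it was not tested in a fit of only these 2 groups. Ube2c, the E2 of the anaphase-promoting complex, did not pass the filter on low counts in liver: 3 counts over 10 controls and 25 over 5 exposed livers. The remaining 8 probes tested, of Ube2a, Ube2d1, Ube2l6, Usp1, Usp18, Usp22, Psme1 and Psme2, were not called, with log2 fold changes from -0.22 to 0.23.

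In liver at 800 ppm 1,4-DCB, 9 of 25 member probes rose and 0 fell. Of all probes 34.9% were called, again near the members' share. Of all probes, 19.5% rose and 15.4% fell. The median log2 fold change was 0.17 over the members and -0.0011 over all probes. In 3 members every exposed rat lay beyond every control, and 13% of all probes did. The 9 were Usp14, Psmd6, Psma5, Psmd4, Psmb3, Psmd9, Psmc1, Ube2t and Usp18. Of these, 8 were also called as higher with 1,2-DCB, and Usp18 was not. Both the 9 and the 8 include Ube2t, whose calls rest on few counts.

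Usp14 was at 15.5 to 21.8 CPM (median 18.4) in the 1,4-DCB control livers and at 25.4, 26.1, 24.6, 22.97 and 23.8 CPM in rats F601 to F605 at 800 ppm. The groups did not overlap, and the log2 fold change was 0.41 ± 0.07 (adjusted p = 1.3e-05, edgeR). Psmd6 went from 61.2 to 71.2 CPM to 83.4, 82.9, 83.6, 84.6 and 79.95 CPM (0.30 ± 0.06 on the log2 scale) and Psmd4 from 48.6 to 61.005 CPM to 69.9, 63.5, 65.5, 69.1 and 63.1 CPM (0.26 ± 0.06), both without overlap. Psma5 was at 45.6 to 55.9 CPM in controls and at 64.03, 66.3, 62.4, 55.7 and 57.6 CPM at 800 ppm, a log2 fold change of 0.27 ± 0.07, with F604 inside the control range.

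Smaller or less stable changes made up the rest. Psmb3 and Psmd9 had log2 fold changes of 0.25 ± 0.07 and 0.38 ± 0.11, and each had 4 of 5 exposed rats above all controls. Without rat F604 the adjusted p of Psmd9 was 0.051 (edgeR). Psmc1 had 0.18 ± 0.06 on the log2 scale (adjusted p = 0.024, edgeR), and its adjusted p was 0.13, 0.11 and 0.059 without F602, F603 and F605. Ube2t had 20 counts over 10 control livers, 12 of them in 1 rat, and 110 counts over the 5 livers at 800 ppm. Here too Ube2t passed the filter through exposed livers where it was high. It was not tested in a fit of only these 2 groups. Usp7 had -0.17 ± 0.07 (adjusted p = 0.058, edgeR) and was called as lower by DESeq2 (adjusted p = 0.039) and by edgeR with DESeq2 size factors (0.047). Psmb8 and Psmb10 were not called with 1,4-DCB, with log2 fold changes of -0.47 ± 0.41 and -0.15 ± 0.18. The 16 members not called ran from -0.47 to 0.71, the highest being Psmd2 with an SE of 0.53.

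**Figure D2:**
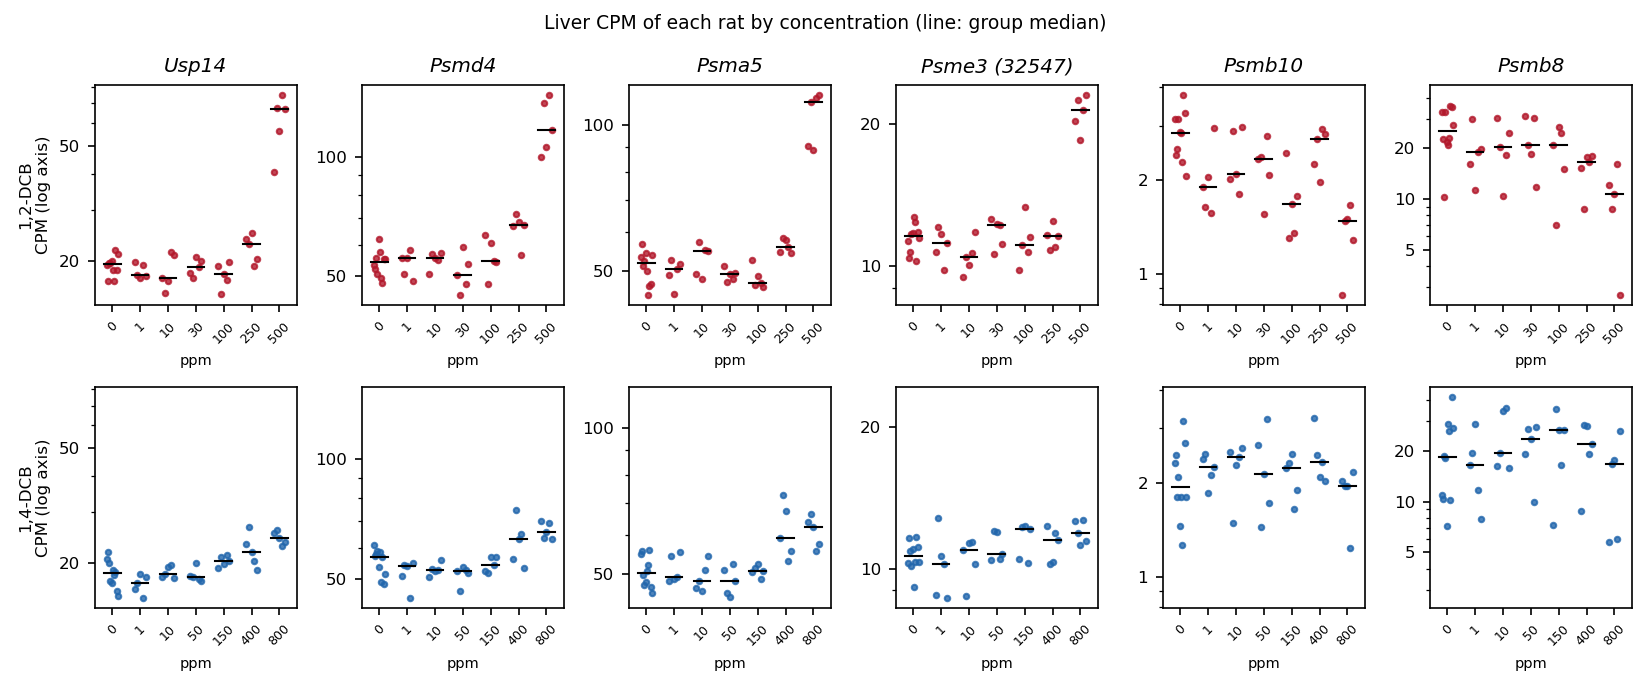
CPM in each liver (log axis) against concentration in ppm for 6 members, with 1,2-DCB above in red and 1,4-DCB below in blue; points are rats and lines are group medians. Usp14 medians stay between 17.5 and 19.5 CPM up to 100 ppm 1,2-DCB and reach 66.8 CPM at 500 ppm, and reach 24.6 CPM at 800 ppm 1,4-DCB.

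Below the top concentrations few members were called, and these in liver. At 250 ppm 1,2-DCB 4 of 25 members were higher (24.8% of all probes were called): Ube2t, Psme1, Psmd6 and Psmd4. Psmd4 was at 56.5 to 71.6 CPM there (log2 fold change 0.29 ± 0.08) and Psmd6 at 74.4 to 102.5 CPM (0.37 ± 0.09). Psme1 was at 100.1 to 126.4 CPM, against 88.4 to 104.5 CPM in controls (0.29 ± 0.07, adjusted p = 0.0018, edgeR), and was back at 89.8 to 111.97 CPM at 500 ppm. At 250 ppm the median of Usp14 was 22.8 CPM with a log2 fold change of 0.20 ± 0.10, which did not pass (adjusted p = 0.12, edgeR).

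At 100 ppm 1,2-DCB 2 of 25 members were called, where 2.13% of all probes were. Psmb10 was at 1.31 to 2.44 CPM, with 4 of 5 rats below all controls (log2 fold change -0.73 ± 0.18, adjusted p = 0.019, edgeR), while at 250 ppm it was at 1.97 to 2.92 CPM and was not called. The Psmb10 call at 100 ppm was lost without F402, F403 or F404, with adjusted p of 0.067, 0.068 and 0.090. Ube2t was called as higher and lost the call without F401 or F403 (adjusted p = 0.19 and 0.12, edgeR). At 400 ppm 1,4-DCB Psma5 (0.28 ± 0.07) and Usp14 (0.27 ± 0.07) were higher, 2 of 25 against 6.44% of all probes called. Without rat F502 neither passed (adjusted p = 0.097 and 0.20, edgeR), and Usp14 also did not pass without F501 (0.074). In a fit of only these 2 groups the adjusted p were 0.050 and 0.13 (edgeR).

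In the other 47 comparisons below the top concentrations, 7 in liver and 40 in the other tissues, 0 of 1190 member values were called by edgeR, against 0.131% of all probe values. DESeq2 also called 0 members in the 47. Over all of them, 61 member values had an unadjusted edgeR p below 0.05, and the share of all probes at that cutoff is not given.

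The only concentrations that both compounds share are 1 and 10 ppm, which allow 2 matched comparisons of the isomers in liver. The difference between the compounds' changes was called for 0 of 25 members at each concentration, and for 0% of all 2090 probes (smallest adjusted p among members 0.996 at 1 ppm and 0.999 at 10 ppm, edgeR). One member at each concentration had an unadjusted p below 0.05. For Usp14 the 1,2-DCB change minus the 1,4-DCB change was 0.05 on the log2 scale at 1 ppm (95% interval -0.19 to 0.29) and -0.07 at 10 ppm (-0.31 to 0.17). For Psmd4 it was 0.09 at both (-0.11 to 0.29 at 1 ppm and at 10 ppm). Intervals were wide for Psmb8, from -1.25 to 0.82 at 1 ppm and from -1.66 to 0.41 at 10 ppm. The top concentrations differ (500 and 800 ppm), so their values stand side by side and were not compared.

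Outside liver, few members were called at the top concentrations, but more had an unadjusted edgeR p below 0.05. With 500 ppm 1,2-DCB these were 10 of 24 in heart, 7 of 26 in kidney, 6 of 26 in lung and 9 of 26 in ovary. With 800 ppm 1,4-DCB they were 8 of 26 in lung and 3 of 26 in ovary. A member not called is therefore not shown to be unchanged. The share of all probes at this unadjusted cutoff is not given, so these counts do not set the members apart from the panel. With 500 ppm 1,2-DCB in heart 2 of 24 members rose, where 12% of all probes were called. Psmd4 was at 363 to 479 CPM (median 399) in controls and at 398, 501.2, 468, 580 and 484 CPM in the exposed hearts (log2 fold change 0.27 ± 0.07, adjusted p = 0.0072, edgeR). Psmc1 was at 381 to 449 CPM in controls and at 437, 466, 434, 531 and 490 CPM (0.19 ± 0.06, adjusted p = 0.027, edgeR). The groups overlapped in both. Without rat F604, the highest in both, neither passed (adjusted p = 0.076 and 0.15, edgeR), and Psmc1 also did not pass without F602 (0.052) or F605 (0.083).

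In kidney at 500 ppm 1,2-DCB 2 members rose and 2 fell of 26, with 16.4% of all probes called. Psmc1 rose from 259 to 292 CPM to 284, 341, 307, 346 and 328 CPM (log2 fold change 0.23 ± 0.05, adjusted p = 0.0017, edgeR), and Psmd6 from 483 to 585 CPM to 557, 570, 606, 636 and 626 CPM (0.21 ± 0.06, adjusted p = 0.0074, edgeR). Psmb8 was at 8.58 to 20.3 CPM in controls and at 8.48, 9.23, 8.41, 9.32 and 3.39 CPM at 500 ppm (-0.85 ± 0.29, adjusted p = 0.042, edgeR). Leaving out any 1 of the 5 rats took the adjusted p of Psmb8 to between 0.054 and 0.15. Ube2t had 4 to 27 counts in each of the 9 control kidneys and 0 to 8 in the exposed ones, and its call (adjusted p = 0.026, edgeR) was lost without F601, F602, F603 or F604.

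In lung at 500 ppm 1,2-DCB 2 of 26 members fell, with 8.85% of all probes called. Usp18, an interferon-induced protease that removes the ubiquitin-like protein ISG15, was at 8.89 to 47.4 CPM (median 26.2) in controls and at 5.57, 8.76, 7.99 and 6.90 CPM in the 4 exposed lungs. All 4 were below every control (log2 fold change -1.81 ± 0.37, adjusted p = 0.0010, edgeR). Ube2l6, the E2 for ISG15, was at 0.845 to 4.05 CPM in controls and at 1.38, 0.691, 0.377 and 0.870 CPM (-1.43 ± 0.41, adjusted p = 0.020, edgeR). The Ube2l6 call was lost without F603, F604 or F605 (adjusted p from 0.060 to 0.11) and in a fit of only these 2 groups (0.085). In ovary 1 of 26 members fell, Psme2, where 2.91% of all probes were called. It was at 18.6 to 32.7 CPM in controls and at 19.8, 21.3, 13.5, 19.1 and 19.8 CPM (-0.43 ± 0.12, adjusted p = 0.042, edgeR), and the call was lost without F601, F602, F603 or F604 and in a fit of only these 2 groups (adjusted p = 0.076, edgeR).

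With 800 ppm 1,4-DCB, edgeR called 0 of 24 members in heart (6.86% of all probes called, 3 members at an unadjusted p below 0.05) and 0 of 25 in kidney (5.03%, 2 members). DESeq2 also called 0 in both. In lung 1 of 26 rose, with 5.91% of all probes called: Psma5 was at 183 to 237 CPM in controls and at 227, 244, 225, 214 and 278 CPM (log2 fold change 0.24 ± 0.07, adjusted p = 0.035, edgeR). It did not pass without F602 (0.083) or F605 (0.17), nor with the libraries marked as unused put back (0.32), nor in a fit of only these 2 groups (0.11). In ovary 1 of 26 fell, with 8.47% called: Usp14, from 288 to 380 CPM in controls to 267, 256, 286, 272 and 268 CPM (-0.28 ± 0.07, adjusted p = 0.014, edgeR). All 5 ovaries were below every control. Without F602 its adjusted p was 0.061.

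**Figure D3:**
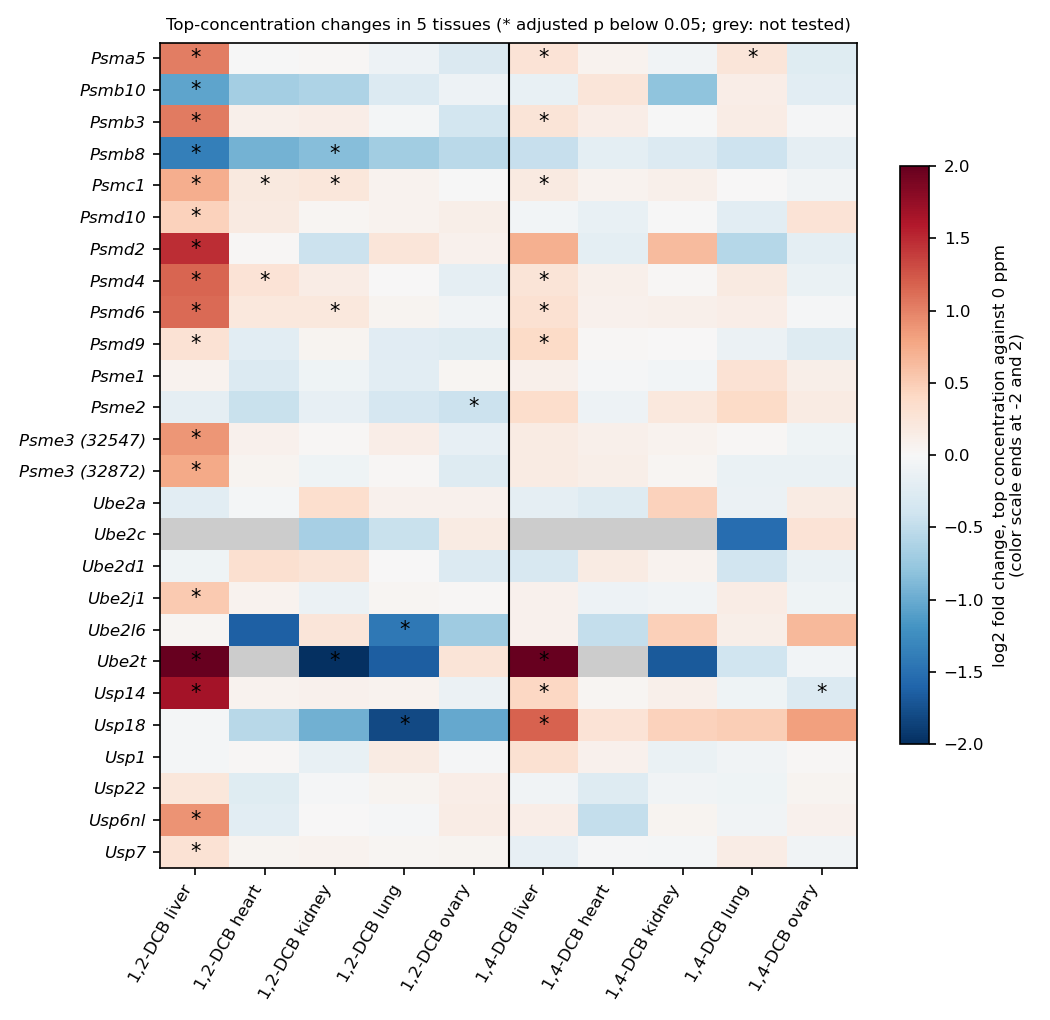
Log2 fold change of each member probe at the top concentration against 0 ppm in each tissue, with 500 ppm 1,2-DCB in the 5 columns on the left and 800 ppm 1,4-DCB in the 5 on the right. Stars mark an adjusted p below 0.05 and grey cells were not tested; 17 and 9 stars are in the liver columns, and no other column has more than 4.

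Whether liver differed from the other tissues was tested directly, as the liver change minus the mean change of heart, kidney, lung and ovary. At 500 ppm 1,2-DCB 15 of 26 members differed, 14 higher and 1 lower in liver, with 46.7% of 2532 probes called. The median difference was 0.54 on the log2 scale over the members and -0.08 over all probes. The difference was 1.47 ± 0.08 for Usp14, 0.95 ± 0.07 for Psma5, 0.93 ± 0.08 for Psmd4, 0.91 ± 0.09 for Psmb3, 0.87 ± 0.09 for Psmd6 and 0.43 ± 0.07 for Psmc1. Psmb10 had -0.80 ± 0.23 and was the 1 called lower, while Psmb8, at -0.77 ± 0.45, was not called. At 800 ppm 1,4-DCB 4 of 26 differed, with 20.7% of 2555 probes called. Usp14 (0.33 ± 0.07), Ube2c and Ube2t were higher in liver and Usp7 was lower (-0.31 ± 0.08). For Ube2c and Ube2t the liver values rest on few counts with both compounds, and Ube2c did not pass the filter in liver alone (6 counts over 10 controls and 41 over the 5 livers at 800 ppm 1,4-DCB), so neither gives the size of a difference.

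With both directions counted, other genes of the ubiquitin system were called about as often as the panel, but nearly all of their calls were rises. Of 84 listed genes, 22 had a tested probe, and 13 rose and 1 fell at 500 ppm 1,2-DCB (median log2 fold change 0.39), while 9 rose and 0 fell at 800 ppm 1,4-DCB (median 0.21). The shares of all probes called in these comparisons were 67.8% and 34.9%. By direction, 35% of all probes rose and 32.7% fell with 1,2-DCB, and 19.5% rose and 15.4% fell with 1,4-DCB. The 3 with the smallest p with 1,2-DCB were Mdm2, the E3 ligase of p53 (log2 fold change 1.93 ± 0.11), Sqstm1, the autophagy receptor p62 (1.86 ± 0.13; also in the NRF2 list), and Skp1, a part of cullin ligases (0.65 ± 0.06). With 1,4-DCB they were Cdc20, an activator of the anaphase-promoting complex (2.36 ± 0.32; also in the proliferation list), Mdm2 (0.54 ± 0.08) and Sqstm1 (0.48 ± 0.08).

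Further lists were counted beside the members, where 35% of all probes rose and 32.7% fell with 1,2-DCB, and 19.5% rose and 15.4% fell with 1,4-DCB. NRF2 targets, genes of antioxidant and conjugating enzymes, rose in 23 of 24 tested with each compound, with median log2 fold changes of 2.39 and 1.02, led by Cbr1 (3.27 ± 0.10) with 1,2-DCB and by Me1 (2.66 ± 0.18) with 1,4-DCB. Heat shock chaperones rose in 9 of 9 with 1,2-DCB (median 1.22; Hspb1 5.15 ± 0.22), and 2 rose and 1 fell of 9 with 1,4-DCB (median 0.16; Hspd1 0.70 ± 0.08). Proliferation genes rose in 16 of 18 and 17 of 17, with Mcm2 at 1.42 ± 0.13 and Pcna at 0.93 ± 0.09. Interferon and antigen presentation genes fell in 11 of 17 probes and rose in 1 with 1,2-DCB (median -1.05), led by Psmb9, the third immunoproteasome subunit (-1.05 ± 0.16), and Ifit2 (-0.77 ± 0.18). With 1,4-DCB 1 of the 17 rose, Usp18 itself.

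The interferon list also fell outside liver with 500 ppm 1,2-DCB, in 7 of 17 probes in heart, 5 in kidney, 8 in lung and 3 in ovary, and none rose there. Of all probes 12%, 16.4%, 8.85% and 2.91% were called in these tissues, in either direction. Usp18, a member of both the list and the genes described here, had log2 fold changes of -0.55 in heart, -0.96 in kidney, -1.81 in lung and -1.03 in ovary, of which the one in lung passed.

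**Figure D4:**
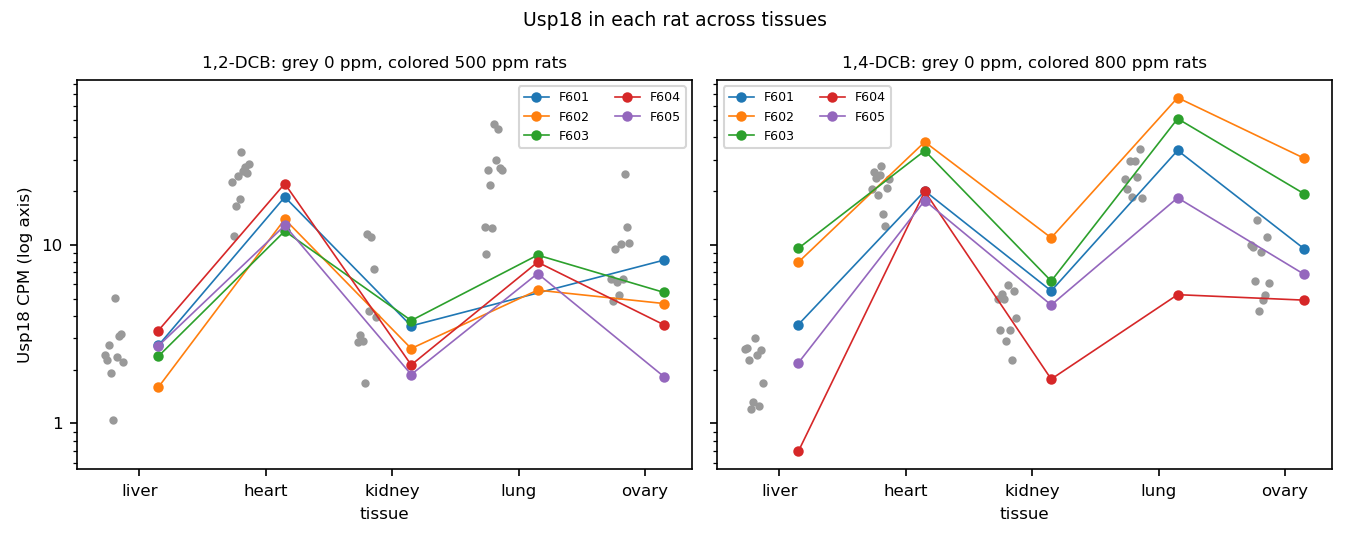
Usp18 CPM (log axis) in each rat across tissues, with 1,2-DCB on the left and 1,4-DCB on the right; grey points are 0 ppm rats and colored lines join the tissues of each rat at the top concentration. At 800 ppm 1,4-DCB rats F602 and F603 lie above every 1,4-DCB control in all 5 tissues, but not above every 1,2-DCB control in kidney and ovary.

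The Usp18 rise at 800 ppm 1,4-DCB came from part of the group. Controls in this paragraph are those of 1,4-DCB unless named otherwise. Control livers were at 1.198 to 2.99 CPM, and the exposed livers were at 3.57, 7.99, 9.55, 0.696 and 2.18 CPM in F601 to F605 (log2 fold change 1.18 ± 0.34, adjusted p = 0.0060, edgeR). Above all controls were 3 rats, and F604 was below all of them. Without F603 the adjusted p was 0.11, and in a fit of only these 2 groups it was 0.050 (0.0504 before rounding). F602 and F603 were above all controls in every tissue, a pattern picked out after the values were seen. They were at 37.7 and 33.7 CPM in heart (controls 12.7 to 27.6), 10.9 and 6.27 in kidney (2.27 to 5.92), 66.7 and 50.9 in lung (18.3 to 34.5) and 30.6 and 19.3 in ovary (4.24 to 13.8). Unexposed 1,2-DCB rats, scaled in fits of their own, reached 11.4 and 11.1 CPM in kidney (F6 and F8), above both. In ovary the 1,2-DCB control F8 was at 25.1 CPM, above F603. F604 was at 1.77 CPM in kidney and 5.26 in lung, below all controls in both, and inside the control range in heart and ovary.

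Psmb8 also varied by rat. In ovary, 17 of 80 rats with an ovary library were at 9.85 to 31.7 CPM and the other 63 at 45.5 to 203.7 CPM, and that split was picked after the values were seen. The probe's sequence was not used here, so whether it reads the transcript equally well in every rat was not tested, and a low value may not be a low level. In lung the rats low in ovary were at 16.7 to 35.1 CPM (15 libraries) and the others at 49.8 to 196 CPM (57), with no overlap. Their medians were 5.83 against 23.1 CPM in heart, 6.41 against 13.5 in kidney and 8.76 against 21.8 in liver, with overlapping ranges. Low rats were spread over the groups: 1 of 10 controls and 1 of 5 at each 1,2-DCB concentration, and 4 of 10 controls and 0 to 2 of 5 at each 1,4-DCB concentration. In liver, F605 was the low rat at 500 ppm 1,2-DCB and F3 the low control. Without F3 the Psmb8 log2 fold change there was -1.47 (adjusted p = 0.00016, edgeR).

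**Figure D5:**
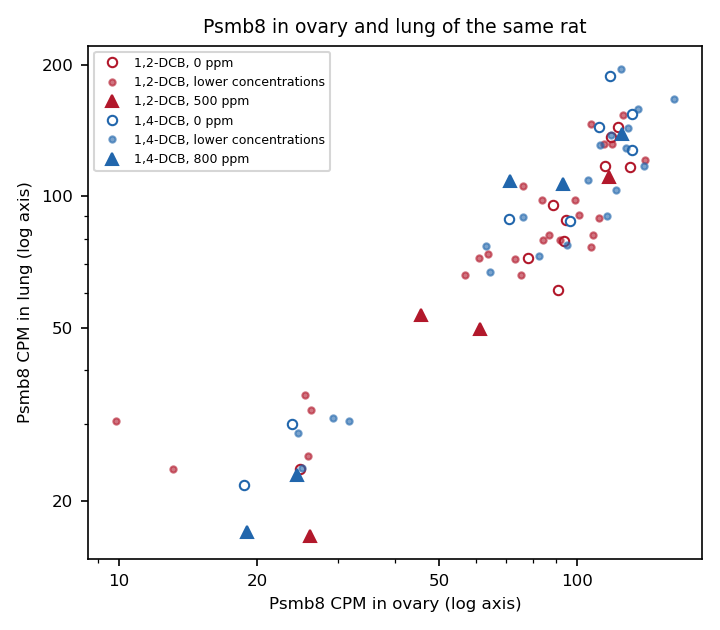
Psmb8 CPM in lung against ovary of the same rat, both on log axes, for every rat with both libraries; open circles are 0 ppm, small dots the lower concentrations and triangles the top concentration of each compound. Rats fall into a low set, at most 31.7 CPM in ovary and 35.1 in lung, and a high set, at least 45.5 and 49.8.

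Levels of the members in control tissues could not be ordered. The median scaling factor of liver against the library total was 0.163 by TMM, the scaling used by edgeR, and 2.34 in ovary. By TMM, Psma5 was highest in liver (254 to 344 CPM) and by library totals it was highest in ovary (380 to 480 CPM) and lowest in liver. The tissue with the highest median was the same under TMM, DESeq2 size factors and library totals for 7 of 26 members, and for 0 of them did it lie apart from all other tissues under all 3.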

How the data were processed

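Whole tissue RNA of 5 tissues was measured with the TempO-Seq Rat S1500+ panel. The values deposited by the authors are raw read counts per probe, adjusted for attenuation per the labels (dilution of abundant targets), and Bowtie 1.3.1 is named in the submitters' processing notes; the labels give neither its settings nor the probe sequences. All member probes held counts with a step of 1, so none was scaled. Of 399 libraries, 390 were used and 9 marked as unused by the submitters entered 1 alternative. Groups came from the labelled compound, concentration and tissue, and the F number in the titles names the rat, which is the same animal across tissues. Counts were tested in R 4.3.3 with edgeR 4.0.16 (TMM, filterByExpr, robust quasi-likelihood, all 7 groups of a tissue and compound in 1 fit, Benjamini-Hochberg over all probes tested). DESeq2 1.42.0 and limma 3.58.1 gave alternatives. The fit was tested on simulated data. Totals limit counting precision only, since reads carry no molecular identifiers.

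Per role and direction, up to 4 called members with the smallest p were named in liver, up to 3 in other tissues, and up to 3 genes per pathway list. The members and lists were chosen with earlier results of these data known. Promoter windows were taken from RefSeq (GRCr8). Same-rat libraries were checked for pairing: the within-rat correlation estimated by limma was 0.0434 with 1,2-DCB and 0.0425 with 1,4-DCB. This is 1 value per compound and not 1 per member, and Psmb8 and Usp18 varied by rat across tissues. The edgeR fit of liver against the other tissues treated libraries of 1 rat as independent.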

Additional observations from a re-analysis of the deposited data

Results flagged for a closer look

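Among the members called at a top concentration, 74 groups of 4 to 10 rats were examined for a single rat far from the others, and 5 were found; chance gives about 1 in 20. For Psmb8 in kidney at 500 ppm 1,2-DCB, rat F605 (3.39 CPM) was separated from the others (8.41 to 9.32 CPM) by 0.847 of the group's range. For Psme2 in ovary at the same concentration, F603 (13.5 CPM, others 19.1 to 21.3) was separated by 0.721. In the control livers of 1,2-DCB, F8 was high for Psmb3 (51.2 CPM, others 33.6 to 42.9; 0.473 of the range) and for Usp7 (14.5 CPM, others 11.6 to 12.9; 0.552). In the control livers of 1,4-DCB, F10 was high for Ube2t (0.195 CPM, others 0 to 0.0760; 0.610).

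The liver change differed from the mean change of the other 4 tissues, by the test of that difference, for 15 member probes at 500 ppm 1,2-DCB. On the log2 scale the differences were 1.47 for Usp14, 0.95 for Psma5, 0.93 for Psmd4, 0.91 for Psmb3, 0.87 for Psmd6, 0.43 for Psmc1, 1.34 for Psmd2, 0.70 and 0.66 for the Psme3 probes, 0.36 for Ube2j1, 0.75 for Usp6nl, 0.88 for Usp18 and -0.80 for Psmb10. For Ube2t (6.11) and Ube2c (3.72) they rest on few counts. The Usp18 difference comes with falls in the other tissues (log2 fold changes -0.55 to -1.81) beside -0.04 in liver. It did not pass with DESeq2 size factors (adjusted p = 0.060), with limma voom (0.13), or without F604 (0.14) or F605 (0.11).

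At 800 ppm 1,4-DCB the differences that passed were 0.33 for Usp14 and -0.31 for Usp7, with 4.97 for Ube2c and 3.74 for Ube2t, which rest on few liver counts. With both compounds Ube2c did not pass the filter on low counts in liver alone and was tested in the joint fit only.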

How the results depend on the processing

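No member called in the analyses reported changed direction under any alternative run. A scaling by DESeq2 size factors moved the median log2 fold change of all liver probes from 0.035 to 0.042 at 500 ppm 1,2-DCB and from -0.0011 to -0.0088 at 800 ppm 1,4-DCB. Both scalings rest on most probes being unchanged, while 67.8% were called in liver at 500 ppm 1,2-DCB. Their likeness therefore does not test that premise, and a scaling by library totals was not run for these comparisons. With the rat as a replicate block (limma voom, tissues of the same rat), 14 members differed between liver and the other tissues with 1,2-DCB and 4 with 1,4-DCB; limma voom without the block gave the same counts, Usp18 with 1,2-DCB did not pass in either (adjusted p = 0.10 with the block, 0.13 without), and the block itself changed no call. A minimum mean level of 20 CPM, which leaves 7 members tested in liver, gave 7 calls at 500 ppm 1,2-DCB, 5 at 800 ppm 1,4-DCB, 0 at 100 ppm 1,2-DCB and 4 at 400 ppm 1,4-DCB, with 2 in 1,2-DCB kidney, 2 in 1,2-DCB ovary, 1 in 1,4-DCB heart and 2 in 1,4-DCB lung. Except for DESeq2 in liver at 800 ppm 1,4-DCB, shares of all probes called under the alternatives are not given. The 7 of 7 therefore does not set the members apart from the panel. DESeq2 called 1 member at 100 ppm 1,2-DCB in liver (it gave no adjusted p for Ube2t), 2 in 1,2-DCB ovary and 2 in 1,4-DCB lung. DESeq2 also called 5 in 1,2-DCB kidney, 3 in 1,2-DCB lung and 10 in liver at 800 ppm 1,4-DCB. There it called 36.1% of all probes, and the member call gained was a fall of Usp7. Outside liver, its gained calls at 500 ppm 1,2-DCB were falls of Psma5 in ovary (log2 fold change -0.28), Usp18 in kidney (-0.97) and Psme1 in lung (-0.21). At 800 ppm 1,4-DCB it gained a rise of Psme1 in lung (0.30). Fits of only an exposed group and its controls called 13 higher and 2 lower of 24 in liver at 500 ppm 1,2-DCB. In liver at 800 ppm 1,4-DCB they called 7 higher of 23. They called 2 higher and 1 lower of 24 in 1,2-DCB heart. Such fits called 1 in liver at 100 ppm 1,2-DCB, 0 at 400 ppm 1,4-DCB, 1 in 1,2-DCB lung and 0 in 1,4-DCB lung. With the 9 unused libraries put back, 0 were called in 1,4-DCB lung at 800 ppm and 5 in the 40 comparisons below the top outside liver, all higher in 1,4-DCB lung at 400 ppm, where 2 of the 5 rats had been left out.

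Leaving out 1 rat at a time gave 16 to 17 calls in liver at 500 ppm 1,2-DCB and 7 to 10 at 800 ppm 1,4-DCB, 0 to 2 at 100 ppm and 0 to 4 at 400 ppm. Outside liver the ranges were 1 to 3 in 1,2-DCB heart, 2 to 3 in kidney, 1 to 2 in lung and 0 to 2 in ovary, and 0 to 1 in 1,4-DCB heart, 0 to 3 in lung and 0 to 1 in ovary. The cause of these shifts was not tested, beyond the fewer rats or probes that each alternative holds. In liver Ube2t, Ube2c and Psmd2 had counts too few to give the size of a change, and Usp6nl, Ube2a and Ube2l6, also mostly below 1 CPM, had wide errors.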
